A study of Rattus norvegicus and Mus musculus with 9 samples.

Results

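The SOX transcription factors other than Sox2 were followed on microarrays of embryonic stem (ES) cells of the rat, fibroblasts of rat embryos, and ES cells of the mouse. The 10 genes were Sox3, Sox4, Sox5, Sox6, Sox9, Sox11, Sox12, Sox13, Sox15 and Sox18, taken by gene symbol from the platform annotation with 1 probe set per gene. The mouse table listed all 10, of 19938 named genes. The rat table listed 8, of 14506 named genes, and Sox3 and Sox9 were not analysed there. Each of these 8 had 1 rat probe set.

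There were 3 groups of 3 arrays. The rat ES cells, of strain DA, were cultured in 3I medium, a name used for mixtures of kinase inhibitors that hold ES cells undifferentiated. The rat embryonic fibroblasts, also of strain DA, grew in GMEM with 10% FBS. The C57/BL6 ES cells of the mouse grew in GMEM with 10% FBS and leukaemia inhibitory factor (LIF), and were freed of feeder cells before RNA extraction. The labels do not say that the rat ES cultures were freed of feeders, nor that replicate arrays represent separate cultures, so p-values reflect only array-to-array spread, which may be technical. Cell type and medium differed together between the rat groups and cannot be told apart.

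Signals are log2 values, and the medians of the named genes lay between 6.23 and 6.34 on the rat arrays. All 7 measured ES cell markers were above the array median on every rat ES array. Of 9 fibroblast markers, 7 were above it on every fibroblast array, and the exceptions, Dcn and Lum, were below it. In rat ES cells 4 of the 9 were above it, and Col1a1, which encodes a chain of type I collagen, was at 9.71, 10.17 and 10.56 on rat ES arrays 1, 2 and 3. The log2 of the summed signal of the 9 markers ran between 10.94 and 11.62 in rat ES cells, against 15.51 to 15.59 in fibroblasts. All 8 ES cell markers were above the array median on the mouse arrays, and so were 6 of 9 fibroblast markers.

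SOX proteins share the HMG box, a DNA-binding domain related to that of the sex-determining factor SRY, which bends DNA and usually acts beside a partner factor. They are sorted by sequence into groups. Group B1 (Sox2, Sox3) is known from pluripotent and neural progenitor cells, where Sox2 works with the POU factor Oct4. Group C (Sox4, Sox11, Sox12) is known from neural and mesenchymal progenitors of the embryo. Group D (Sox5, Sox6, Sox13) lacks an activation domain of its own, and Sox5 and Sox6 assist the group E factor Sox9 in cartilage. Group F (Sox18) is known from blood and lymph vessels, and group G holds Sox15 alone, which is known to be expressed in mouse ES cells.

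Upstream sequence was at hand in RefSeq (build GRCr8) for 6 of the 10 genes, and not for Sox4, Sox5, Sox9 and Sox18. Sox11 was 1.84-fold lower and Sox15 1.39-fold higher in rat ES cells than in rat fibroblasts, and neither difference reached 2-fold. Their windows are shown as the 250 bases before the annotated start, 5′ to 3′ along the gene, with matches to any of 5 searched words in capitals.
Sox11 (chr6:49738795-49739044, minus strand): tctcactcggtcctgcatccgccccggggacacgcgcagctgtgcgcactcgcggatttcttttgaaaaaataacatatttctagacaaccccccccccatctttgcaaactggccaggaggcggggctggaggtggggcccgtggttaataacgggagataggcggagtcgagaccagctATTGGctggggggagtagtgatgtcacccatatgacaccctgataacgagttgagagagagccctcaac
Sox15 (chr10:54871543-54871792, plus strand): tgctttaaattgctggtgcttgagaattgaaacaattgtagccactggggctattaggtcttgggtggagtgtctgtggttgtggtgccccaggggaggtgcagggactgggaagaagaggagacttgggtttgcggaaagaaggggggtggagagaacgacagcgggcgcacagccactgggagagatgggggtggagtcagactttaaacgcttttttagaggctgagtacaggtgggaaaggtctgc
The words, searched on both strands, were CCAAT (in 34.0% of 33469 rat windows of this length), TATAAA (12.9%), the SOX core words ACAAAG (16.3%) and ACAATG (11.1%), and the octamer ATGCAAAT bound by POU factors (1.56%). The capitals in Sox11 are a CCAAT word on the other strand, which began 69 bases before the start, and Sox15 held none of the words. Among the other 4 windows, Sox3 held 1 CCAAT word, Sox6 held 1 CCAAT, 1 ACAAAG and 2 ACAATG words, and Sox12 and Sox13 held none. A match describes these letters and does not show a bound site.

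The first comparison asked which SOX genes differed between rat ES cells and rat fibroblasts. Sox4 was called lower in rat ES cells, by 3.80-fold, and was the only 1 of the 8 measured genes to be called. No member was called higher. A gene was called at a limma adjusted p under 0.05, over all 14506 genes, and a difference of at least 2-fold. Over all genes 20.7% were called, 10.6% higher and 10.1% lower, and the share of 1 in 8 was no higher than that background. With no fold threshold, 6 of the 8 passed, 3 higher (Sox12, Sox13, Sox15) and 3 lower (Sox4, Sox5, Sox11), against 56.3% of all genes (30.9% higher and 25.5% lower). At an unadjusted limma p under 0.05, 3 were higher and 4 lower, the added gene being Sox6. The median log2 difference (rat ES cells minus fibroblasts) of the 8 was -0.15, against -0.00069 over all genes tested.

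**Figure D1:**
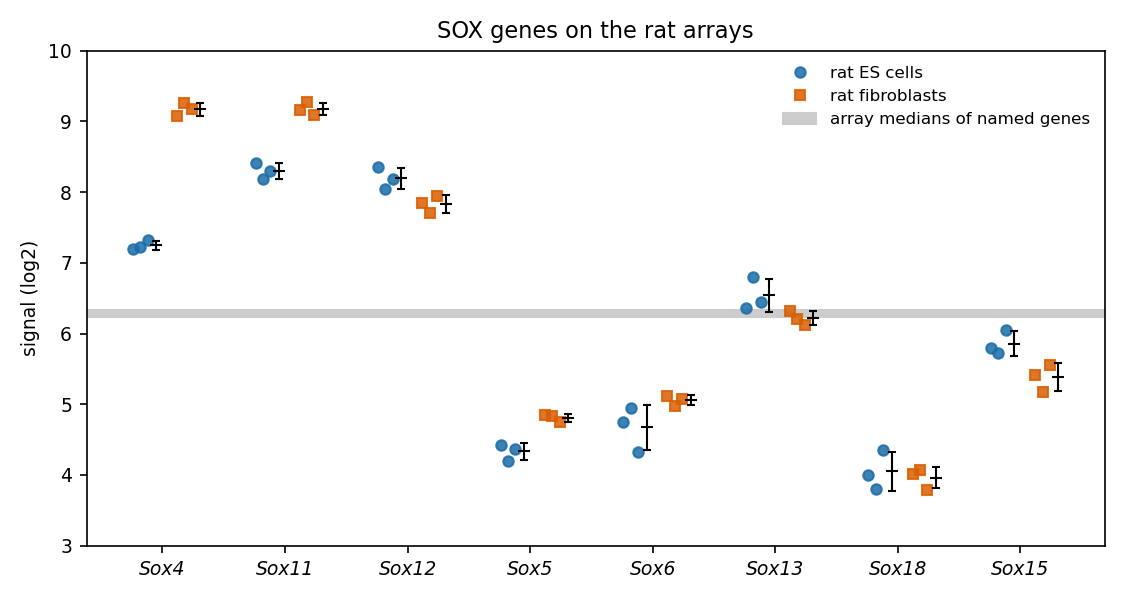
Signal (log2) of the 8 SOX genes on the rat arrays, each point 1 array, with mean and SD of 3 arrays as black bars and the range of array medians as a grey band. Sox4 and Sox11 are lower in rat ES cells, Sox12 and Sox15 somewhat higher, and Sox5, Sox6, Sox15 and Sox18 lie under the array medians in both groups.

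The largest differences were in group C, where Sox4 and Sox11 were lower in rat ES cells and Sox12 was slightly higher. Sox4, which drives differentiation and survival programmes in many embryonic tissues, had signals of 7.20, 7.22 and 7.32 in rat ES cells, against 9.08, 9.26 and 9.18 in fibroblasts. The groups were far apart, and every array was above its median in both. The means were 7.25 ± 0.064 in rat ES cells and 9.17 ± 0.089 in fibroblasts (SD, n = 3), a log2 difference of -1.92 (SE 0.07, limma adjusted p = 1.12e-07). Of all genes tested, 4.49% had a lower difference. Rat ES array 3, the array with the highest Col1a1 signal among the ES arrays, also had the highest Sox4 signal. Sox11 was highest on rat ES array 1, where Col1a1 was lowest. The part of fibroblasts in the Sox4 and Sox11 values was not tested. Without rat ES array 3 the Sox4 difference was -1.96, with a limma adjusted p of 1.07e-06.

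Sox11, which acts beside Sox4 in neural and mesenchymal precursors, had signals of 8.41, 8.19 and 8.29 in rat ES cells, against 9.16, 9.27 and 9.09 in fibroblasts. The groups did not overlap, as was so for 7 of the 8 genes and for 61.5% of all genes. The log2 difference was -0.88 (SE 0.08, limma adjusted p = 2.47e-05), 1.84-fold, and its 95% interval ran from -1.07 to -0.68, across the 2-fold line. Sox12, the group C factor whose loss leaves mice without a marked defect, went the other way. Its signals were 8.35, 8.05 and 8.18 in rat ES cells, against 7.84, 7.70 and 7.95 in fibroblasts, a log2 difference of 0.36 (SE 0.10, limma adjusted p = 0.0139). This pass was lost after quantile normalization (adjusted p = 0.0638) and without fibroblast array 2 (adjusted p = 0.051).

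The balance among the 3 group C genes was then compared between the rat groups. On the same array, the log2 signal of Sox4 minus that of Sox11 was -1.21, -0.97 and -0.97 in rat ES cells, against -0.09, -0.01 and 0.09 in fibroblasts. Sox4 minus Sox12 averaged -0.95 ± 0.177 in rat ES cells and 1.34 ± 0.187 in fibroblasts (SD, n = 3). Sox11 minus Sox12 averaged 0.10 ± 0.040 in rat ES cells and 1.34 ± 0.216 in fibroblasts (SD, n = 3). In none of the 3 pairs did the groups overlap. An exact two-sided permutation test over arrays gave p = 0.1 for each pair, also after adjustment over the 3 pairs. That is the smallest p that 3 arrays against 3 allow, and groups that do not overlap always give it. The pairs share genes and were chosen after their values were seen, so they are not separate results. The absolute values compare different probe sets, so only the shift between groups is read here. That shift also depends on how each probe set responds.

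**Figure D2:**
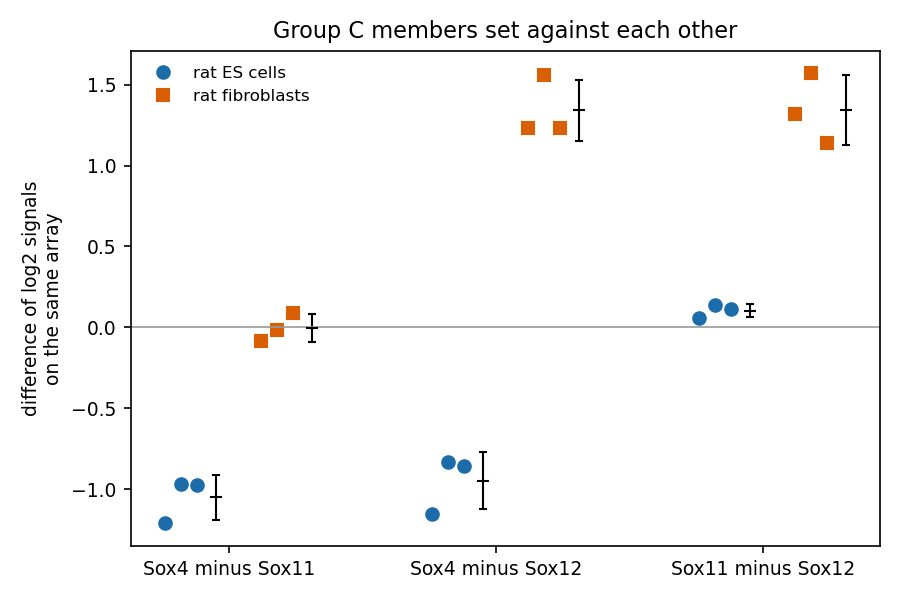
Difference of log2 signals between pairs of group C genes on the same array, for rat ES cells and rat fibroblasts, each point 1 array, with mean and SD of 3 arrays. Every pair separates the groups, from a shift of -1.05 for Sox4 minus Sox11 to -2.29 for Sox4 minus Sox12.

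Group D genes had small differences in both directions. Sox5, which with Sox6 supports cartilage formation, had signals of 4.42, 4.20 and 4.37 in rat ES cells, against 4.85, 4.83 and 4.75 in fibroblasts. The log2 difference was -0.48 (SE 0.08, limma adjusted p = 8.2e-04). Sox6, which also takes part in muscle fibre and red cell maturation, had signals of 4.74, 4.95 and 4.33 in rat ES cells, against 5.12, 4.98 and 5.08 in fibroblasts. Rat ES array 3 was the low one, and the difference of -0.39 did not pass (limma adjusted p = 0.0514, 95% interval -0.72 to -0.05). Without rat ES array 3 it was -0.21 (limma adjusted p = 0.0925), and without rat ES array 2 it was -0.53 and passed the adjusted p at 0.01. Both genes lay below the array medians on all 6 rat arrays, where a silent gene and an unresponsive probe set give the same reading.

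Sox13, the more widely expressed group D gene, had signals of 6.37, 6.80 and 6.45 in rat ES cells, against 6.32, 6.21 and 6.12 in fibroblasts. Array 2 was the highest of the ES arrays, and array 1 and the highest fibroblast array were close. The log2 difference was 0.32 (SE 0.12, limma adjusted p = 0.048). It kept an adjusted p under 0.05 in 6 of 12 other settings, and without rat ES array 2 it was 0.19 (limma adjusted p = 0.122).

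Sox15 and Sox18 had low signals on the rat arrays. Sox15, the group G gene, had signals of 5.79, 5.73 and 6.06 in rat ES cells, against 5.41, 5.18 and 5.56 in fibroblasts. The log2 difference was 0.48 (SE 0.12, limma adjusted p = 0.0093), or 1.39-fold, and it kept its adjusted p under 0.05 in all 12 other settings in which it was tested. Sox18, a regulator of endothelial and lymphatic identity, had signals of 3.99, 3.81 and 4.35 in rat ES cells, against 4.02, 4.07 and 3.79 in fibroblasts. These overlapped, with a log2 difference of 0.09 (limma adjusted p = 0.623, 95% interval -0.23 to 0.42). All 6 rat arrays were below their medians for both genes.

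The profile of Sox4, the called member, was then set against those of the other 14505 genes by Euclidean distance over the 6 rat arrays. The nearest were Cast, which encodes the calpain inhibitor calpastatin, at a distance of 0.217, the lipid kinase gene Pik3c2a at 0.237 and the mechanosensitive channel gene Piezo1 at 0.297. Their log2 differences lay between -2.05 and -1.84. The distance uses absolute signals, which also depend on how each probe set responds, so nearness describes these readings and not shared expression levels.

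Among other SOX family genes, 7 of 10 were measured on the rat arrays, and Sox2 was called higher and none lower. Sox2 was at 10.53, 10.69 and 10.70 in rat ES cells, against 6.49, 6.05 and 6.07 in fibroblasts, 1 of which was above its array median. The log2 difference of 4.44 (SE 0.12, limma adjusted p = 1.97e-08) stood beside differences of less than 0.2 in size in the other 6. These were Sox7 (-0.15) and Sox17 (-0.19) of group F, Sox8 (-0.10) and Sox10 (-0.18) of group E, Sox14 (-0.19), and the testis-determining gene Sry (-0.06). None of the 6 passed the adjusted p, and all lay below the array medians on all 6 rat arrays. Limma adjusted p-values for these 6 ranged from 0.0931 for Sox14 to 0.583 for Sry.

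**Figure D3:**
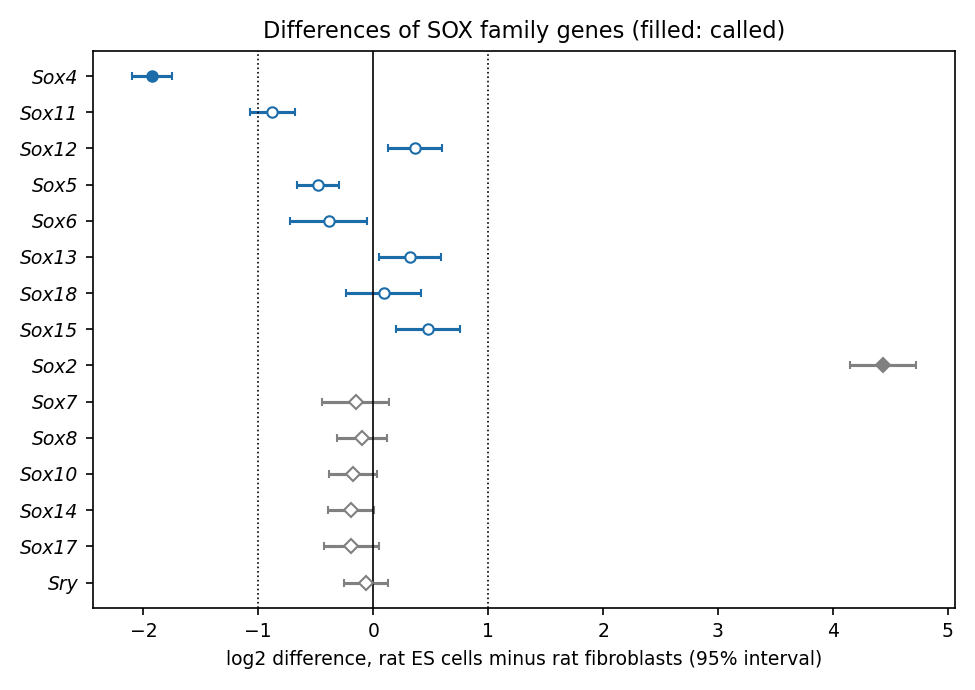
Log2 difference, rat ES cells minus rat fibroblasts, with its 95% limma interval from 3 arrays a group, for the 8 SOX genes (circles) and 7 other family genes (diamonds). Filled symbols are called, dotted lines mark 2-fold, and Sox4 at -1.92 and Sox2 at 4.44 are the called genes.

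Genes known to act with SOX factors were counted next, against medians of -0.00069 and shares of 10.6% higher and 10.1% lower over all genes. Of 7 measured genes known to carry a joint Oct4 and Sox2 element in mouse ES cells, 6 were called higher and 0 lower in rat ES cells, and the list's median log2 difference was 4.42. Pou5f1 (7.04), which encodes Oct4, Nanog (6.73) and Sox2 itself led. These genes are also among the ES cell markers, so the higher calls of this list are in part the same result. Of 11 measured genes upstream of the members or partners of SOX proteins, 2 were called higher and 3 lower in rat ES cells (median -0.13). Higher were Pou5f1, which is in both lists, and Pou2f1 (2.55), which encodes the octamer-binding factor Oct1. Lower were the growth factor gene Tgfb1 (-3.53) and, chosen after their values were seen, the Hedgehog pathway factors Gli3 (-1.69) and Gli2 (-1.48).

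Of 4 genes known as group C targets in neural or mesenchymal cells, 2 were called lower in rat ES cells and 0 higher (median log2 difference -1.20). Lower were Map2 (-3.39) and Dcx (-1.68), which encode microtubule-binding proteins of neurons. Tead2, a Hippo pathway factor, differed by -0.72 and the neuronal tubulin gene Tubb3 by 0.58. Of 6 measured neural markers, 4 were called lower in rat ES cells and 0 higher, and 4 were below the array median on all rat ES arrays, against 1 on all fibroblast arrays. These markers include Map2, Dcx and Tubb3, so 2 of their 4 calls are the same genes as the called targets. The part of neural cells in the Sox4 and Sox11 values was not tested.

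Of 11 measured cartilage genes known as targets of Sox9 with Sox5 and Sox6, 4 were called lower in rat ES cells and 0 higher (median log2 difference -0.36). Lower were the cartilage collagen Col11a1 (-4.99), the proteoglycan gene Acan (-3.51), the link protein gene Hapln1 (-2.32) and, chosen after its value was seen, the type II collagen gene Col2a1 (-2.24). Col2a1 was at 6.44 ± 0.150 in rat ES cells and 8.68 ± 0.018 in fibroblasts (SD, n = 3), above the array medians in both. Of 6 chondrocyte markers, 3 of them among these 4 genes, 2 were below the array median on all fibroblast arrays, Matn1 and Cnmd, and neither was called. The log2 of their summed signal was between 8.16 and 8.28 in rat ES cells and between 10.18 and 10.19 in fibroblasts.

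Of 6 genes known as targets of Sox18 or its group in endothelium, 2 were called higher and 0 lower in rat ES cells, and the list's median log2 difference was 0.16. Higher were the tight junction gene Cldn5 (2.05) and the lymphatic regulator Prox1 (1.04), whose signals were below the array medians in both groups. Prox1 fell short of 2-fold without rat ES array 2 (0.85) and without fibroblast array 1 (0.96). Of 8 endothelial markers, in rat ES cells 3 were called higher and 2 lower. Lower were Tek (-1.31) and Erg (-1.58), of which Erg was above the array median on every fibroblast array. Pecam1, an adhesion molecule also expressed by ES cells, averaged 9.04 in rat ES cells and 4.46 in fibroblasts, and the receptor gene Tie1 averaged 8.16 in rat ES cells and 5.16 in fibroblasts. The third marker called higher was Cldn5, and the defining markers Kdr and Cdh5 were below the array medians on all 6 arrays. The log2 of the summed signal of the 8 markers ran between 10.08 and 10.21 in rat ES cells, against 8.18 to 8.29 in fibroblasts. The part of endothelial cells in the Sox18 and Prox1 values was not tested. In the directions with 0 calls, limma gave an unadjusted p under 0.05 to 1 gene, Tubb3, of the group C target list. It gave this to 0 genes of the Oct4 and Sox2, cartilage and endothelial target lists. Tubb3 also passed the adjusted p (limma adjusted p = 2.33e-04) and missed only the fold threshold. Of 5 endoderm markers 1 was called lower, of 5 skeletal muscle markers 2 were called lower, and none was called higher in either list. None of 3 neural crest and glial markers was called, of which 1, Foxd3 (0.33), passed the adjusted p (limma adjusted p = 0.00503) but not the fold threshold.

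The second comparison asked how high each SOX gene ranked in rat ES cells and in mouse ES cells. The tables come from different platforms and were normalized separately, so each gene is given as its percentile among 12114 symbols shared by both tables, within each array. A percentile depends on how well a probe set responds, so the order of different genes is not an order of expression. Mouse values were not free of repeats: 3 of the 10 SOX genes (Sox5, Sox6, Sox13) were at an identical value across the mouse arrays. Another 2 (Sox4, Sox15) were identical on a pair of them, while 54.4% of all named mouse genes were identical on all 3. For Sox5, Sox6 and Sox13, non-overlap with the mouse arrays therefore does not rest on 3 separate mouse readings. No SD over the mouse arrays is given and no test was made. Genes are counted as apart where the arrays of the groups did not overlap and the means differed by at least 10 points.

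In mouse ES cells, 7 of the 10 genes lay above the median of the array's named genes on every array, all but Sox5, Sox6 and Sox9. Sox3, the group B1 relative of Sox2, had signals of 6.64, 6.77 and 6.58 on the mouse arrays, with a mean percentile of 72.0 among all named mouse genes. Sox9, the cartilage and testis factor, had signals of 5.07, 5.13 and 4.83, with a mean percentile of 46.0.

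Of the 8 genes in both tables, 1 was apart with the higher rank in rat ES cells (Sox12) and 5 were apart with the lower rank there (Sox5, Sox6, Sox13, Sox15, Sox18). Over all shared symbols 45% were apart, 22% with the higher and 22.9% with the lower rank in rat ES cells. The median difference, rat ES cells minus mouse ES cells, was -14.4 points over the 8 genes and -0.329 over all shared symbols. The 7 other SOX family genes in both tables had a median difference of -12.3 points, with 1 apart higher (Sox17) and 4 apart lower (Sox7, Sox8, Sox14, Sry) in rat ES cells. Sox7 and Sry were each at an identical value on all 3 mouse arrays, and Sox8 and Sox14 on a pair of them. The non-overlap of these 4 genes therefore does not rest on 3 separate mouse readings.

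Group C genes ranked above the median of shared genes in the ES cells of both species. Sox4 was at percentiles 58.6, 58.2 and 59.7 in rat ES cells, against 62.3, 63.2 and 61.9 in mouse ES cells. The difference of the means was -3.59 points, and rat fibroblasts were at 87.9, 89.5 and 89.2. Sox11 was at 78.7, 74.7 and 76.5 in rat ES cells, against 66.5, 67.0 and 69.7 in mouse ES cells, a difference of 8.90 points. Sox12 was at 77.8, 72.3 and 74.5 in rat ES cells, against 61.9, 64.2 and 63.5 in mouse ES cells, a difference of 11.7 points that was 5.77 when all named genes of each table were ranked.

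The remaining genes ranked lower in rat ES cells. Sox18 was at 8.31, 6.91 and 12.5 in rat ES cells, against 49.7, 56.2 and 45.0 in mouse ES cells, a difference of -41.1 points. Its mean rank was 9.25 in rat ES cells and 7.66 in rat fibroblasts. Sox15 was at 37.3, 36.4 and 40.7 in rat ES cells, against 64.1, 65.8 and 64.5 in mouse ES cells, a difference of -26.7 points. Sox13 was at 46.2, 51.5 and 46.4 in rat ES cells, against 66.5, 67.7 and 66.3 in mouse ES cells, a difference of -18.8 points. Sox6 differed by -15.3 points and Sox5 by -13.5, both below the array medians in either species. Sox2 differed by 0.482 points, at a mean of 97.4 in rat ES cells and 97.0 in mouse ES cells. Species, medium, platform and probe sets all differed between these groups and cannot be told apart.

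**Figure D4:**
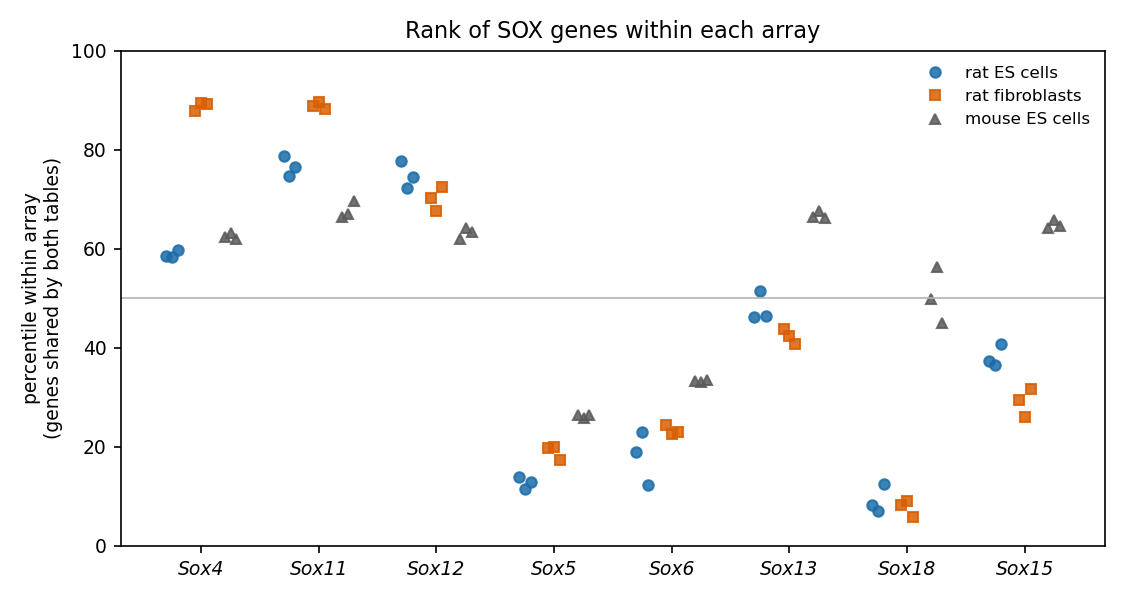
Percentile of each SOX gene within each array, among genes shared by both tables, for rat ES cells, rat fibroblasts and mouse ES cells, each point 1 array. Sox4 in rat ES cells lies near mouse ES cells and below rat fibroblasts. Sox5, Sox6, Sox13, Sox15 and Sox18 lie lower on all 6 rat arrays than on the mouse arrays.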

How the data were processed

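Total RNA was converted to biotin-labelled single-stranded DNA and hybridized to arrays, each with 1 sample, per the labels' protocols. The deposited tables give a log2 signal for each of 29215 probe sets on 6 rat arrays and 35557 on 3 mouse arrays. That these are log2 signals follows from the range (1.87 to 14.33 on the rat arrays), while the background correction, normalization and build were not given in the sources used here. Values were used as deposited, with no filter on level. Probe sets with 1 gene symbol in the supplied platform annotation were kept, and for a gene with several (527 rat genes) the one with the highest mean.

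Rat ES cells and fibroblasts were tested by limma (version 3.58.1, R 4.3.3), using lmFit with a term for group and eBayes. P-values were adjusted by Benjamini-Hochberg over 14506 genes. The procedure was tested on simulated data. Replicate numbers did not pair the arrays (correlations of deviations -0.00044, 0.031 and -0.0003). RefSeq windows came from build GRCr8. Members, lists and rules were chosen with earlier results of these data known, and the pairs within group C after their values were seen. Every member was named. From the other lists, up to 3 called genes of largest size and up to 2 against the majority were named, besides all other SOX genes and the 3 nearest profiles. The number of arrays limits the precision.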

Additional observations from a re-analysis of the deposited data

How the results depend on the processing

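The call of Sox4 held under every alternative run: median centring or quantile normalization, a filter on mean level at its 25th percentile or median, averaged probe sets, eBayes with trend and robust settings, an adjusted p under 0.01, the replicate number as a block (replicate block, limma adjusted p = 5.25e-06) and leaving out each array, with differences from -1.97 to -1.86. No other member was called unless the fold threshold was dropped. Then 3 members were called higher and 3 lower, against 4478 and 3694 of all genes (1538 and 1458 with it), and 14 listed genes were called lower in place of 9. With the block, Sox13 no longer passed the adjusted p (0.0552), and no call of a member at 2-fold changed. Leaving out single arrays gave 0 members called higher and 1 lower each time, 1546 to 1570 genes higher and 1428 to 1486 lower, and 8 to 9 listed genes higher and 9 lower. Sox18, not called, ranged from -0.058, the opposite sign, without rat ES array 3 to 0.21 without rat ES array 2. Of the SOX genes apart between rat ES and mouse ES cells, the count of higher ranks was 0 among all named genes and 2 with a filter at the 25th percentile in both tables, which also left 2 lower ranks because Sox5, Sox6 and Sox18 were removed. With single arrays left out, these counts were 1 higher and 5 lower each time. Every member had 1 rat probe set, so showing each probe set apart added nothing. Median centring moved the median of all genes to 0.07. For genes below the array medians, folds are uncertain, since no detection measure was at hand.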

Other observations

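Most signals of other SOX family genes on the mouse arrays are not given above. Sox1, the third group B1 gene and a marker of neural progenitors, had signals of 7.05, 7.23 and 6.83, with a mean percentile of 77.3 among all named mouse genes. The 3 group B1 genes therefore all lay above the array medians in mouse ES cells, where Sox2 had a mean percentile of 97.9. Of 7 neural markers measured in the mouse, Sox1 among them, 2 were above the array median on every mouse array. The median percentile of the 7 was 45.5 among all named mouse genes. Sox21, known to counter Sox2 in neural progenitors, had a mean percentile of 58.8 with the same value on all 3 arrays. Sox17, an endoderm regulator, had a mean percentile of 27.4. Sox30, known from male germ cells, had a mean percentile of 35.9, and Sry had 45.2, both with the same value on all 3 arrays.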
